A study of Mus musculus with 4 samples.

Results

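The transcripts described here belong to 9 genes of the prostaglandin and leukotriene pathways, Ptgs1, Ptgs2, Ptges, Hpgds, Hpgd, Alox5, Alox5ap, Ltc4s and Ptger4, out of 32285 genes in each count matrix. They were chosen by symbol, and each symbol matched 1 row in all 4 matrices. Leukocytes positive for the pan-leukocyte marker CD45 were sorted from collagenase-digested hindpaws, and their RNA was read by droplet single-cell RNA sequencing of transcript 3′ ends. The animals were male Lepr db/db mice (DB, C57BLKS/J background), a leptin receptor mutant model of obesity and type 2 diabetes, and their Lepr WT/WT littermates (WT), at 12 or 21 weeks of age. Each genotype at each age (named as in 12-week-WT or 21-week-DB) was 1 library of pooled mice, so differences between ages or genotypes had no replicate, and pooling hides the spread between animals. Wherever 4 values stand in a row they follow the same order of libraries, WT before DB and 12 weeks before 21 weeks. The Lepr mutation is inherited and present in all cells, so effects of leptin receptor loss, obesity and high glucose cannot be told apart.

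Prostaglandins and leukotrienes are short-lived lipid signals made from arachidonic acid. The cyclooxygenases Ptgs1 and Ptgs2 start the prostaglandin branch, terminal synthases such as Ptges and Hpgds decide which prostaglandin is made, Hpgd breaks prostaglandins down, and receptors such as Ptger4 carry the signal into the responding cell. In the leukotriene branch, Alox5 works with its membrane partner Alox5ap, and Ltc4s joins the product to glutathione to give the cysteinyl leukotrienes that act in skin swelling and allergy.

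After removal of barcodes under 200 genes or over 10% mitochondrial UMIs (unique molecular identifiers, 1 for each captured RNA molecule), 5271, 6552, 7270 and 8707 remained, with a median of 5355 to 8000.5 UMIs a barcode. A barcode was given a cell class from its own UMIs of 5 marker genes per class, none of them a gene described here, so a class name below stands for a gate ("macrophage-like" and so on) and not for a sorted population. The level of a gene is its share of all UMIs of the class in a library, scaled to counts-per-million (CPM), and the share of positive barcodes is the percent with at least 1 UMI. Levels of 1 gene are compared between classes and libraries, and levels of different genes are not, since capture at the 3′ end differs between genes. Intervals are exact at the 95% level and take in counting error alone. The 21-week-WT and 21-week-DB libraries shared 154 barcodes, of which 146 were kept; 131 of these met no gate in either library.

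In the GRCm38 build (GENCODE M21 annotation) the genes were found with Ptgs1 at chr2:36230426-36252272 on the plus strand, Ptgs2 at chr1:150100031-150108227 on the plus strand, Ptges at chr2:30889471-30929863 on the minus strand, Hpgds at chr6:65117293-65144908 on the minus strand and Hpgd at chr8:56294585-56321043 on the plus strand. In that annotation Alox5 spans chr6:116410077-116461178 on the minus strand, Alox5ap chr5:149264767-149288153 on the plus strand, Ltc4s chr11:50236461-50238616 on the minus strand and Ptger4 chr15:5206661-5244187 on the minus strand. Ptges overlaps the predicted gene Gm13400 and Hpgd overlaps Gm45540 on the same strand, so reads there could be split between annotations.

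The levels of the 2 cyclooxygenase genes peaked in different leukocyte classes, and their promoters are shown for that reason. Each sequence below runs 5′ to 3′ on the plus strand of GRCm38.p6 from 250 bases before to 50 bases after the RefSeq start of the gene, with capitals marking matches to the motifs searched on both strands (the TATA box, the CCAAT box, the GC box, the full and the partial cyclic AMP element and the E-box).
Ptgs1, chr2:36230176-36230475: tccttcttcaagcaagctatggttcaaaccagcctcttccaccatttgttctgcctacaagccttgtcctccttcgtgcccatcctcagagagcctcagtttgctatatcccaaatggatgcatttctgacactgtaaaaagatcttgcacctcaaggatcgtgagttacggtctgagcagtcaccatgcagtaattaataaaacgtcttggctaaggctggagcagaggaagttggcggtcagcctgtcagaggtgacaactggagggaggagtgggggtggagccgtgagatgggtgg
Ptgs2, chr1:150099781-150100080: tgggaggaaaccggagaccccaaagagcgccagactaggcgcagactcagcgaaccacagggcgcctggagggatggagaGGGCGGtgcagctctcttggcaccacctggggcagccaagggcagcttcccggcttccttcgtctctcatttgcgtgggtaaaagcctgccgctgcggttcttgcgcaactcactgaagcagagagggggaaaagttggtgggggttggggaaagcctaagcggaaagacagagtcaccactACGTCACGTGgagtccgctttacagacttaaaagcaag
The Ptgs1 window held none of the 6 motifs and had 50.7% G and C, and the Ptgs2 window had 59.3%. In the Ptgs2 window a GC box with the letters GGGCGG began 170 bases before the start. A partial cyclic AMP element with the letters ACGTCA, and an E-box with the letters CACGTG that overlapped it, began 12 and 16 bases after the annotated start. Where transcription starts in these cells was not tested. Among 32851 mouse promoters of the same length, 35.7% held this GC box, 7.51% the partial cyclic AMP element and 7.15% the E-box, while 13.6% held a TATA box with the letters TATAAA, 37.4% held CCAAT and 1.79% held the full cyclic AMP element with the letters TGACGTCA. A match is a description of letters and not of a factor at work.

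**Figure D1:**
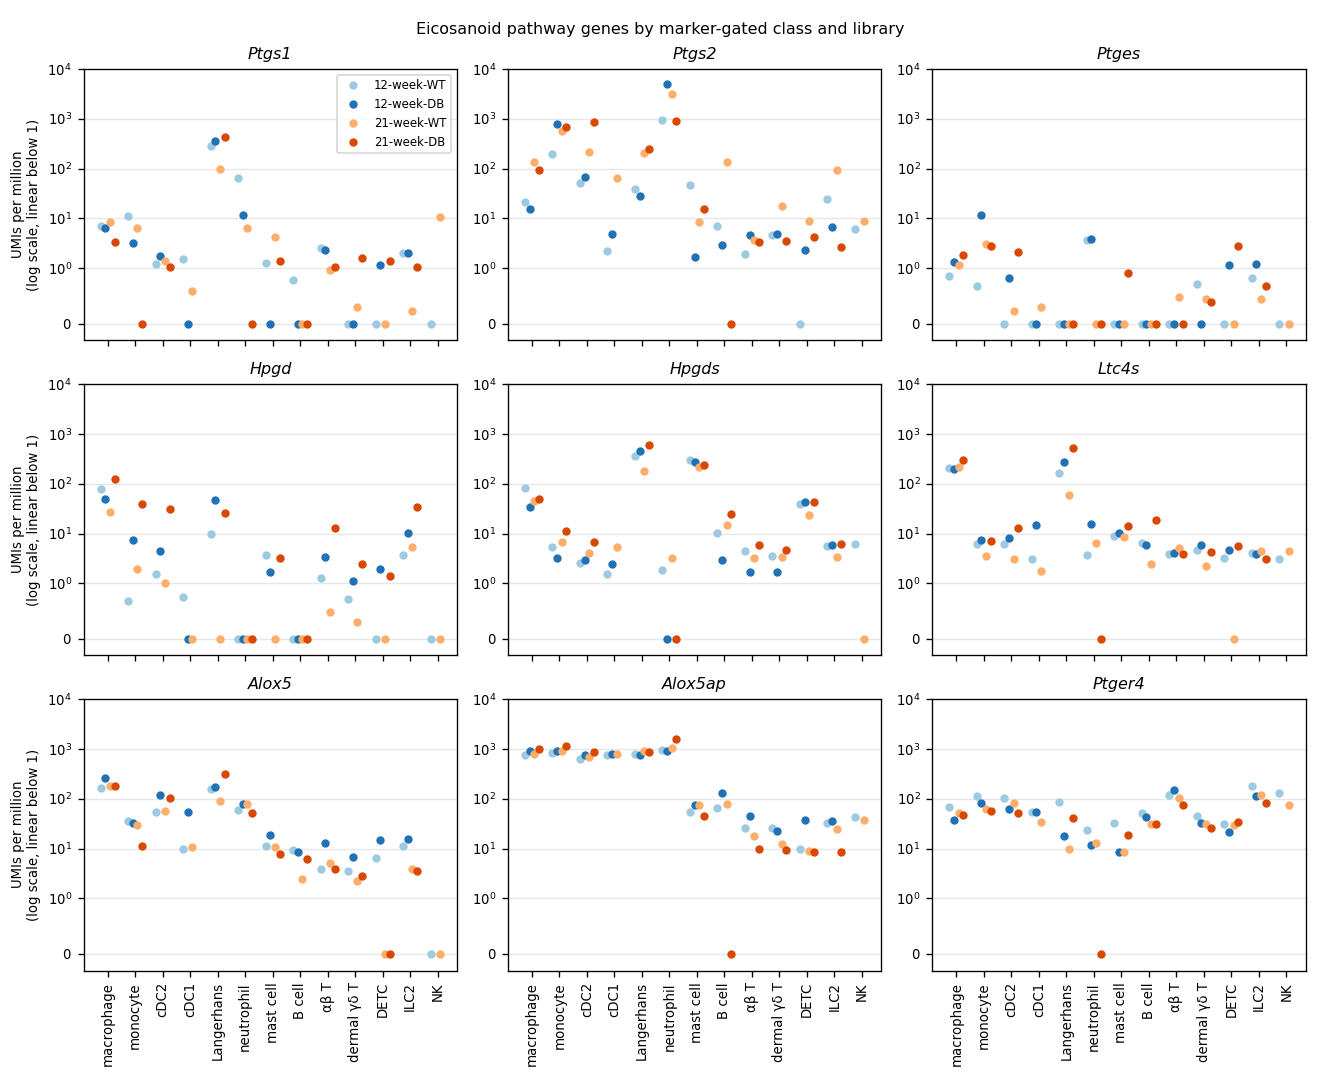
Level of each of the 9 genes (CPM, log axis that is linear near 0) in 13 gated leukocyte classes, with 1 point for each library in which the class had at least 20 barcodes. Ptgs1 stood highest in the Langerhans gate and Ptgs2 in the neutrophil gate, while Ltc4s was at 57.9 CPM or more in the macrophage and Langerhans gates and at 18.6 CPM or less elsewhere.

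Ptgs1, the constitutive cyclooxygenase, was concentrated in the Langerhans gate (whose markers included Cd207, Epcam, Cldn1 and Mfge8), where its level was 284, 363, 98.9 and 433 CPM. The mean there was 295 ± 144 CPM (SD, n = 4 libraries), and its range did not overlap that of the next class. These values rest on 23, 42, 25 and 46 barcodes and on 41 to 240 UMIs a library. The gate held a different mix of barcodes in each library, since 22 of 23, 11 of 42, 25 of 25 and 4 of 46 lay in clusters named cDC2, and clusters named Langerhans formed only in the DB libraries (31 and 41 of the gated barcodes). The level of Cd207, the langerin gene, was 1079, 2598, 1218 and 3285 CPM in the gate, which required a Cd207 UMI of every barcode. The study also listed Cd207 among its cDC1 markers. The share of Langerhans barcodes with a Ptgs1 UMI was 52.2%, 69.0%, 28.0% and 84.8% in the same order, against 3.14% to 6.80% of macrophage barcodes. After each barcode was thinned to 2000 UMIs the Langerhans shares were 30.4%, 46.3%, 24.0% and 50%, and the macrophage shares 0.811% to 2.04%.

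Although less than 1% of kept barcodes, the Langerhans gate held 30.8%, 51.4%, 15.8% and 74.5% of the Ptgs1 UMIs of all gated leukocytes. Macrophages held 42.7%, 38.2%, 61.4% and 14.3%. Barcodes that met 2 unrelated gates lie outside these shares. They held 36, 43, 76 and 182 Ptgs1 UMIs, against 88, 183, 41 and 240 in the Langerhans gate. In macrophages the level was 7.05, 6.52, 8.51 and 3.41 CPM, lowest in 21-week-DB. Macrophages exceeded cDC2 by 2.04 ± 0.45 on the log2 scale (SE, edgeR adjusted p = 2.6e-04, 4 of 4 libraries), but by only 0.07 when classes were taken from clusters (adjusted p = 0.91).

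In neutrophils Ptgs1 was at 65.8 CPM in 12-week-WT (36 UMIs) but at 11.7, 6.55 and 0 CPM in the other libraries (3, 2 and 0 UMIs). The neutrophil to macrophage difference was 2.53 ± 0.57 on the log2 scale (SE) in edgeR's quasi-likelihood test with Benjamini-Hochberg adjustment (adjusted p = 2.4e-04), but neutrophils were higher in only 2 of 4 libraries. Without the 12-week-WT library it was 0.53 (adjusted p = 0.775, the highest of all alternatives, whose adjusted p began at 4.8e-13). Without the barcodes shared between libraries the adjusted p was 0.058.

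Ptgs2, the inducible cyclooxygenase, was highest in neutrophils (S100a8, S100a9, Retnlg, Csf3r and Cxcr2), then in monocytes, cDC2, the Langerhans gate (38.8, 27.8, 210 and 246 CPM) and macrophages. The neutrophil level was 936, 5036, 3135 and 890 CPM, from 36 to 102 barcodes and 103 to 1289 UMIs. No neutrophil value overlapped the monocyte range, the next in order, whereas the ranges of monocytes, cDC2 and the Langerhans gate overlapped.

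**Figure D2:**
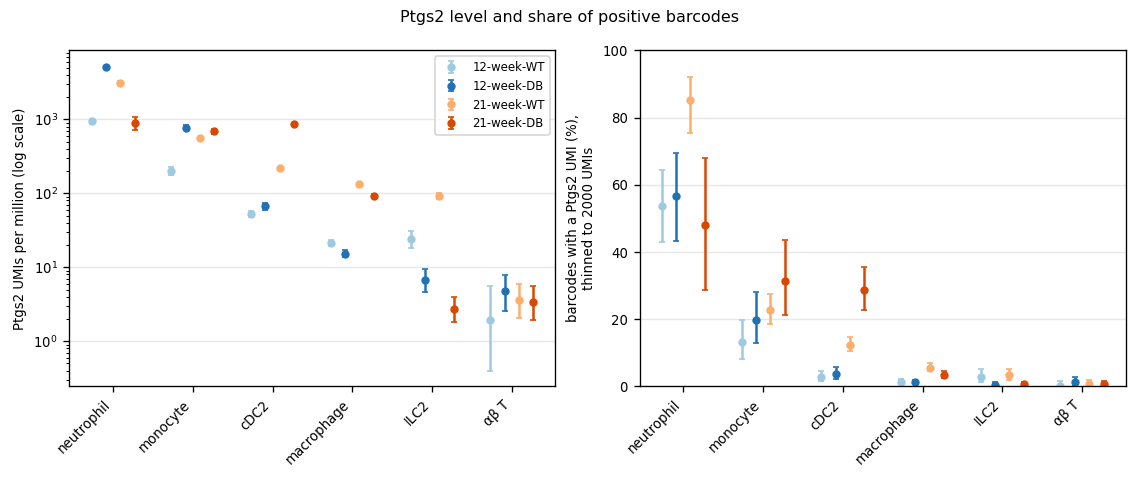
Ptgs2 in 6 gated classes, as CPM on a log axis and as the percent of barcodes with a UMI after thinning to 2000 UMIs, with exact 95% intervals of counting error for each of the 4 libraries. The neutrophil levels reached from 890 to 5036 CPM and the thinned neutrophil shares from 48.1% to 85.2%.

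In the edgeR fit over all classes, with the library as a block, neutrophils exceeded macrophages by 6.20 ± 0.81 on the log2 scale (SE, adjusted p = 1.7e-08, higher in 4 of 4 libraries). Monocytes exceeded macrophages by 3.68 ± 0.72 (adjusted p = 5.1e-05, 4 of 4 libraries). cDC2 also exceeded macrophages, with a macrophage minus cDC2 difference of -2.41 ± 0.69 (adjusted p = 0.0043, lower in macrophages in 4 of 4 libraries, and 0.055 at most over the alternatives).

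The share of neutrophils with a Ptgs2 UMI was highest in 21-week-WT, whereas the level was highest in 12-week-DB. In neutrophils the unthinned shares were 56.9%, 54.1%, 83.0% and 52.8%, and the thinned shares 53.8%, 56.7%, 85.2% and 48.1%. In 12-week-DB, the library with the highest level, 10 of 74 neutrophil barcodes held 76.3% of the class's Ptgs2 UMIs, against 47.3% in 12-week-WT, 44.1% in 21-week-WT and 87.4% in 21-week-DB, where 36 barcodes held 103 UMIs. As a background, 1.21% to 2.42% of αβ T cell barcodes had a Ptgs2 UMI.

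Monocytes (Plac8, Chil3, Ly6c2, Ccr2 and Thbs1) had 199, 769, 554 and 686 CPM of Ptgs2. In cDC2, the dendritic cells that present antigen to helper T cells, the values were 51.9, 66.6, 220 and 867 CPM. The cDC2 level was thus highest in 21-week-DB, and the thinned share of cDC2 with a UMI followed it, at 2.88%, 3.68%, 12.5% and 28.8%. In macrophages the levels were 21.2, 15.2, 133 and 91.9 CPM, so both 21-week libraries lay above both 12-week ones. Few macrophage barcodes had a Ptgs2 UMI, 3.23%, 3.43%, 11.6% and 6.42% unthinned and 1.43%, 1.21%, 5.62% and 3.39% thinned.

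ILC2, innate lymphocytes that make type 2 cytokines, had 24.2, 6.64, 92.5 and 2.73 CPM of Ptgs2. Few barcodes carried these UMIs, with 10 ILC2 barcodes holding 96.6%, 90.9%, 84.8% and 42.9% of them. ILC2 exceeded αβ T cells by 3.01 ± 1.01 on the log2 scale (SE, edgeR adjusted p = 0.044, higher in 3 of 4 libraries). Leaving out 1 library moved that adjusted p between 0.010 and 0.61.

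Ptgs2 is also an early response gene, so the summed level of 12 early response and heat-shock genes (Fos, Jun, Egr1, Atf3, Hspa1a and others) is given beside it. In neutrophils the sum was 16492, 30409, 29034 and 22675 CPM. In macrophages it was 7445, 4644, 9151 and 8090 CPM, and in cDC2 12259, 9755, 13517 and 13052 CPM. In monocytes it was 17756, 12495, 18170 and 20298 CPM, and in ILC2 14522, 14138, 12993 and 14692 CPM. The 2 libraries with the highest neutrophil Ptgs2 also had the highest neutrophil sum. In macrophages both were highest in 21-week-WT, while in cDC2 Ptgs2 was highest in 21-week-DB and the sum in 21-week-WT. Monocytes had their highest Ptgs2 and lowest sum in 12-week-DB, and ILC2 had theirs in 21-week-WT. The part of cell preparation in these differences was not tested.

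Ptges, the inducible synthase of prostaglandin E2, was hardly detected in leukocytes. Its highest class level was 11.8 CPM, in 12-week-DB monocytes, from 11 UMIs. Macrophages had 0.867, 1.34, 1.18 and 1.85 CPM (15, 28, 22 and 25 UMIs), and the gene was too sparse for the test across classes. No Ptges UMI was counted in the Langerhans, B cell or NK cell gates, which allows up to 1.68, 1.16 and 3.07 CPM (3 UMIs over the class in all libraries). The few stromal barcodes that came through the CD45 sort had 91.7, 49.4, 98.7 and 36.7 CPM, from 20, 8, 10 and 5 UMIs in 14 to 34 barcodes. Barcodes of a keratinocyte gate had 87.4, 33.3, 18.1 and 15.1 CPM, from 12, 3, 1 and 1 UMIs in 9 to 17 barcodes.

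Hpgds, the hematopoietic prostaglandin D synthase, was highest in the Langerhans gate and in mast cells (Cpa3, Cma1, Mcpt4, Tpsb2 and Kit), whose ranges overlapped. Mast cells had 301, 272, 215 and 237 CPM, and the Langerhans gate 359, 456, 183 and 596 CPM. Macrophages followed with 82.2, 34.0, 45.8 and 49.6 CPM, below every mast cell value. Mast cells exceeded macrophages by 2.22 ± 0.22 on the log2 scale (SE, edgeR adjusted p = 7.7e-12, higher in 4 of 4 libraries). After thinning, a Hpgds UMI was found in 44.6%, 39.2%, 35.7% and 34.6% of mast cells and in 16.2%, 6.28%, 8.68% and 9.21% of macrophages.

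Macrophages nevertheless held the largest share of Hpgds UMIs, 75.9%, 55.9%, 71.4% and 39.1% of those in gated leukocytes. Mast cells held 30.2% in 21-week-DB, the library with 1212 mast cell barcodes against 213 to 326 in the others. Macrophages exceeded cDC2 by 3.60 ± 0.27 on the log2 scale (SE, edgeR adjusted p = 4.0e-15, 4 of 4 libraries). Dendritic epidermal T cells (DETC), the γδ T cells of mouse epidermis, had 38.4, 42.3, 23.5 and 43.6 CPM from 8 to 107 UMIs.

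Hpgd, the dehydrogenase that inactivates prostaglandins, was mainly a macrophage transcript. Macrophages had 77.8, 49.8, 27.6 and 124 CPM, and held 97.5%, 89.0%, 91.5% and 74.7% of the Hpgd UMIs of gated leukocytes. The thinned share of macrophages with a UMI ran in the same order of libraries, at 14.8%, 8.21%, 5.04% and 18.6%. Macrophages exceeded mast cells, with a mast cell minus macrophage difference of -5.58 ± 0.67 (SE, edgeR adjusted p = 3.8e-09), and exceeded cDC2 by 3.57 ± 0.37 (adjusted p = 2.6e-10, 4 of 4 libraries).

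Neutrophils and B cells had no Hpgd UMI in any library. Counting over the 4 libraries together, macrophages were at least 26.5-fold higher than neutrophils and at least 56.0-fold higher than B cells, with the floor set at 3 UMIs over the class.

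Outside the macrophage gate, Hpgd was also higher in 21-week-DB than in the other libraries in cDC2, ILC2, αβ T cells, monocytes and dermal γδ T cells. cDC2 had 1.57, 4.44, 1.001 and 30.6 CPM (13, 27, 13 and 87 UMIs), and ILC2 had 3.69, 10.3, 5.43 and 33.3 CPM (9, 51, 24 and 342 UMIs). αβ T cells had 1.27, 3.37, 0.486 and 12.6 CPM from 2, 10, 2 and 59 UMIs. Monocytes had 0.674, 7.50, 1.93 and 38.9 CPM (1, 7, 7 and 28 UMIs). Dermal γδ T cells had 0.717, 1.14, 0.296 and 2.50 CPM (2, 4, 2 and 19 UMIs), and barcodes that met no gate 2.56, 2.91, 1.48 and 17.5 CPM. The Langerhans gate did not share this order, with 9.69, 47.6, 0 and 25.3 CPM (3, 24, 0 and 14 UMIs), and mast cells and DETC were at 3.78 CPM or less in every library. The summed level of the 5 macrophage gate markers, a measure of macrophage RNA in other classes, was 486, 691, 414 and 464 CPM in cDC2, 171, 159, 88.2 and 62.6 CPM in ILC2 and 194, 175, 99.7 and 69.4 CPM in αβ T cells. In ILC2 and αβ T cells the marker sum was lowest in 21-week-DB. The 21-week-DB ILC2 held 342 Hpgd and 32 Ltc4s UMIs, and the macrophages of that library 1675 Hpgd and 4091 Ltc4s UMIs. The part of macrophage RNA in the Hpgd values of other classes was not tested.

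Alox5, the lipoxygenase that starts leukotriene synthesis, was highest in macrophages and the Langerhans gate. Macrophages had 166, 258, 177 and 180 CPM, and a UMI was present in 66.6%, 82.0%, 68.7% and 69.9% of them. cDC2 had 54.4, 121, 57.0 and 102 CPM, below the macrophage value of every library. Neutrophils, a classic source of leukotriene B4, had 60.3, 78.1, 78.6 and 51.9 CPM from 33, 20, 24 and 6 UMIs.

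The Alox5 differences of macrophages from cDC2, neutrophils, monocytes and mast cells passed the edgeR test. The macrophage minus cDC2 difference was 1.14 ± 0.24 on the log2 scale (SE, adjusted p = 2.0e-04), and the neutrophil minus macrophage difference was -1.13 ± 0.35 (adjusted p = 0.0061). The alternatives for neutrophils gave adjusted p up to 0.091. The monocyte minus macrophage difference was -2.47 ± 0.29 (adjusted p = 3.0e-09), from 35.7, 33.2, 30.4 and 11.1 CPM in monocytes. NK cells had no Alox5 UMI, which allows up to 3.07 CPM.

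Alox5ap, the partner that hands arachidonic acid to Alox5, was high in neutrophils, monocytes, macrophages, the Langerhans gate, cDC1 and cDC2. Neutrophils had 947, 910, 1015 and 1565 CPM, monocytes 829, 914, 921 and 1135, macrophages 755, 904, 776 and 979, and cDC2 629, 762, 672 and 871. The Langerhans gate was at 736 to 885 CPM, and cDC1 at 735 to 801 CPM in the libraries with at least 20 barcodes. The macrophage range overlapped that of each other class named, while every neutrophil value lay above the cDC2, cDC1 and Langerhans ranges. The macrophage differences did not pass the test against neutrophils (0.70 ± 0.31, neutrophil minus macrophage on the log2 scale, edgeR adjusted p = 0.056, 0.00019 to 0.41 over the alternatives), monocytes (0.36, adjusted p = 0.36) or cDC2 (0.06, adjusted p = 0.90). αβ T cells had 25.4, 44.5, 18 and 9.64 CPM. In thinned macrophages, 72.0%, 80.7%, 78.8% and 77.6% of the barcodes with an Alox5 UMI also had an Alox5ap UMI.

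Ltc4s, the leukotriene C4 synthase, was found mainly in macrophages and the Langerhans gate. Macrophages had 203, 196, 214 and 303 CPM, and the Langerhans gate 165, 276, 57.9 and 525 CPM. Every other class with at least 20 barcodes was at 18.6 CPM or less. Macrophages held 95.5%, 93.5%, 96.4% and 90.03% of the Ltc4s UMIs of gated leukocytes. Macrophages exceeded cDC2 by 4.95 ± 0.26 on the log2 scale (SE, edgeR adjusted p = 6.2e-20, 4 of 4 libraries), and the monocyte minus macrophage difference was -5.12 ± 0.33 (adjusted p = 5.8e-17).

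Mast cells, a textbook source of cysteinyl leukotrienes, had low levels of all 3 leukotriene synthesis genes in these libraries. Ltc4s was at 8.81, 10.3, 8.60 and 14.2 CPM, Alox5 at 11.3, 18.9, 10.7 and 7.80 CPM and Alox5ap at 54.1, 73.9, 73.1 and 44.9 CPM. The mast cell minus macrophage differences were -4.54 ± 0.33 for Ltc4s (SE, edgeR adjusted p = 5.9e-16), -4.20 ± 0.38 for Alox5 (adjusted p = 7.4e-13) and -3.90 ± 0.36 for Alox5ap (adjusted p = 9.5e-13). The share of mast cells with a Ltc4s UMI was 1.84%, 2.11%, 1.88% and 2.31%, against 2.10%, 2.30%, 3.22% and 2.42% of αβ T cells, a class taken here as background. The αβ T cell level was 3.81, 4.04, 5.11 and 3.86 CPM, below the mast cell level of the same library in 4 of 4, and the difference between these classes was not tested. Mast cell barcodes were shallow, and only 168, 97, 84 and 353 of 326, 284, 213 and 1212 reached the 2000 UMIs needed for thinning. Among those the Ltc4s share was 1.79%, 1.03%, 2.38% and 3.40%, against 1.304%, 0.430%, 1.14% and 0.971% of αβ T cells.

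Ptger4, a receptor of prostaglandin E2 that raises cyclic AMP, was found in both lymphoid and myeloid classes. ILC2 had 179, 113, 121 and 82.5 CPM, and αβ T cells had 120, 150, 102 and 75.0 CPM. These ranges overlapped, and ILC2 minus αβ T cells was 0.12 ± 0.18 on the log2 scale (SE, edgeR adjusted p = 0.83). Monocytes had 112, 83.6, 61.6 and 55.5 CPM, cDC2 102, 62.8, 83.2 and 51.7, and macrophages 68.4, 37.0, 52.7 and 47.8. Monocytes exceeded macrophages by 0.76 ± 0.20 (adjusted p = 0.0018, 4 of 4 libraries), and macrophages minus cDC2 was -0.69 ± 0.18 (adjusted p = 0.0022, lower in 4 of 4 libraries, and 0.060 without the library block). Neutrophils were lower than macrophages, at 23.8, 11.7, 13.1 and 0 CPM (-1.45 ± 0.40, adjusted p = 0.0022, 0.41 at most over the alternatives).

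**Figure D3:**
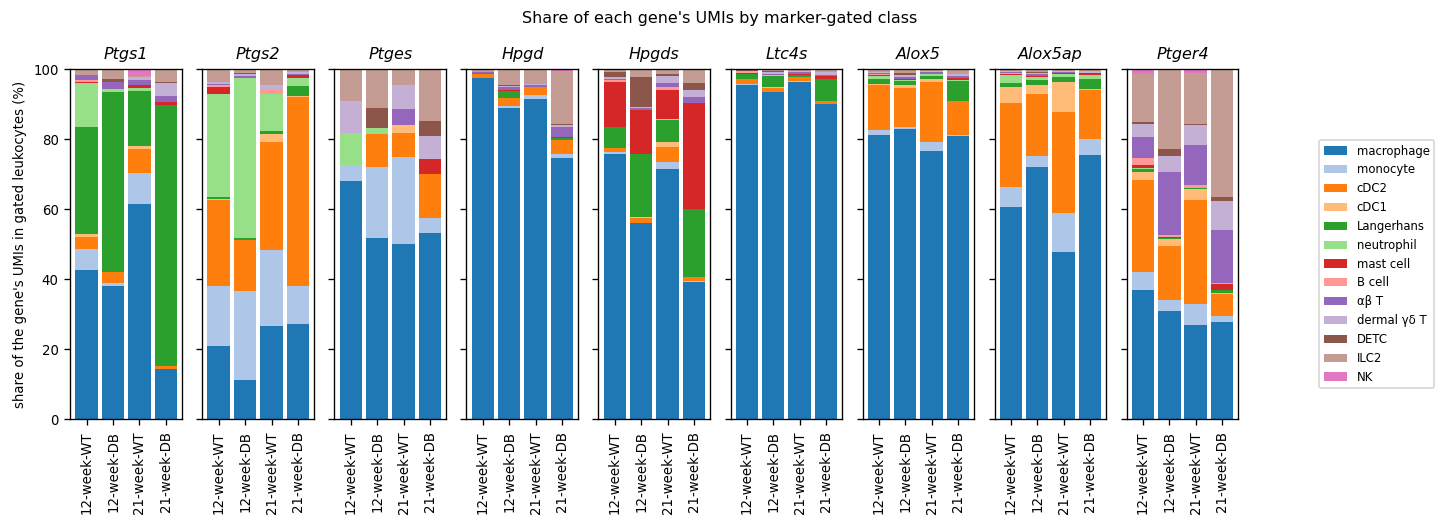
Share of each gene's UMIs in gated leukocytes that came from each class, as stacked bars from 0 to 100% for each of the 4 libraries. Macrophages held 90.03% to 96.4% of Ltc4s UMIs, whereas the class with the largest share of Ptgs1 or Ptgs2 UMIs differed between libraries.

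Counted over the 8 tested genes (Ptges was too sparse), 1 was higher and 6 were lower in mast cells than in macrophages, where 24.0% and 31.0% of all 12431 genes tested were higher or lower. The median difference of the 8 genes was -3.01 on the log2 scale, against -0.15 over all genes tested. Neutrophils against macrophages gave 2 higher and 5 lower, with 18.2% and 32.3% of all genes. Monocytes against macrophages gave 2 higher and 4 lower (19.0% and 22.3%). Macrophages against cDC2 gave 5 higher and 2 lower (19.3% and 16.9%), and ILC2 against αβ T cells 2 higher and 0 lower (5.98% and 5.28%).

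The shares of all genes given above for each contrast of classes also apply to the counts that follow. Among 40 other genes of these pathways, listed by role, 30 could be tested in the same fit. Mast cells were higher than macrophages in 2 of them, the prostaglandin E2 receptor Ptger3 (4.23 on the log2 scale, edgeR adjusted p = 8.4e-16) and the prostaglandin transporter Slco2a1 (3.46, adjusted p = 2.7e-06, higher in 3 of 4 libraries), and lower in 16. The 16 included the thromboxane synthase Tbxas1 (-5.04, adjusted p = 5.2e-12) and the dipeptidase Dpep2 that acts on leukotriene D4 (-5.21, adjusted p = 2.7e-10).

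In neutrophils 8 of the 30 were higher than in macrophages and 11 lower. The higher ones included Cyp4f18, which breaks down leukotriene B4 (7.56 on the log2 scale, edgeR adjusted p = 3.8e-24), the leukotriene B4 receptor Ltb4r1 (2.21, adjusted p = 9.6e-07) and the leukotriene A4 hydrolase Lta4h (1.98, adjusted p = 3.4e-09, higher in 3 of 4 libraries). The cysteinyl leukotriene receptor Cysltr1 was lower (-3.39, adjusted p = 4.6e-05).

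Macrophages were higher than cDC2 in 6 of the 30 and lower in 8. The arachidonic acid releasing phospholipase Pla2g4a was higher (1.47 on the log2 scale, edgeR adjusted p = 4.5e-07), and the lipoxygenase Alox15 (-3.55, adjusted p = 1.1e-13), Ptger3 (-2.93, adjusted p = 6.1e-12) and the prostacyclin receptor Ptgir (-1.67, adjusted p = 4.6e-08) were lower. ILC2 were higher than αβ T cells in 5, the nuclear receptor Pparg and 4 membrane receptors, among them Ptgir (3.13, adjusted p = 3.6e-12) and Cysltr1 (1.45, adjusted p = 4.0e-06), and lower in 1, the thromboxane receptor Tbxa2r (-2.43, adjusted p = 0.0011). Monocytes were higher than macrophages in 9 and lower in 10.

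Macrophages were split by whether a barcode had a UMI of Lyve1, a marker of perivascular tissue macrophages that the study used to divide them. Ltc4s was at 273, 295, 332 and 399 CPM in Lyve1+ macrophages, against 49.9, 50.6, 24.7 and 71.0 CPM in Lyve1- ones. No Lyve1+ value overlapped the Lyve1- range. The difference was 2.70 ± 0.19 on the log2 scale (SE, edgeR adjusted p = 6.5e-05, n = 4 libraries in each arm).

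**Figure D4:**
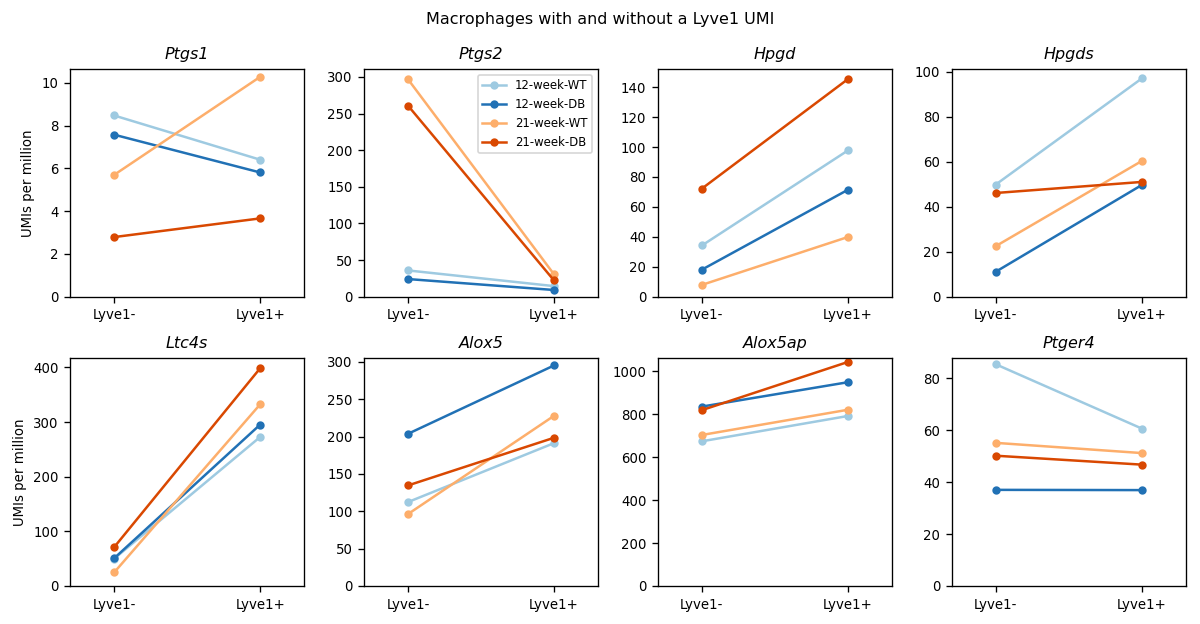
Level of 8 of the genes (CPM) in Lyve1- and Lyve1+ macrophage-gated barcodes, with a line joining the pair of values of each library. Ltc4s rises from 24.7 to 71.0 CPM in Lyve1- to 273 to 399 CPM in Lyve1+ barcodes, and Ptgs2 falls in every library.

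Hpgd followed Ltc4s, with 97.7, 71.4, 39.9 and 145 CPM in Lyve1+ and 34.2, 18.1, 7.92 and 72.2 CPM in Lyve1- macrophages (1.55 ± 0.17 on the log2 scale, edgeR adjusted p = 4.2e-04, higher in 4 of 4 libraries). Hpgds (1.05 ± 0.25, adjusted p = 0.014) and Alox5 (0.69 ± 0.11, adjusted p = 0.0020) were also higher in Lyve1+ barcodes of 4 of 4 libraries. Ptgs2 was the other way round, at 14.5, 9.19, 30.5 and 22.2 CPM in Lyve1+ and 35.9, 24.1, 297 and 261 CPM in Lyve1- macrophages (-2.64 ± 0.39, adjusted p = 0.0014). Without the library block these 4 calls were lost, with adjusted p of 0.21 for Hpgd, 0.23 for Hpgds, 0.097 for Alox5 and 0.051 for Ptgs2.

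Ptger4 was slightly lower in Lyve1+ macrophages (-0.27 ± 0.08 on the log2 scale, edgeR adjusted p = 0.044), and leaving out 1 library moved its adjusted p between 0.037 and 0.17. Alox5ap (0.16, adjusted p = 0.099), Ptgs1 (-0.01, adjusted p = 0.98) and Ptges (0.43, adjusted p = 0.44) did not pass. So 4 of 9 genes were higher and 2 lower, where 14.9% and 14.8% of 11905 genes were. A Lyve1 UMI is found more often in deep barcodes, and the barcodes of both arms thinned to 2000 UMIs are among the alternatives of the closing section. Of the 40 other pathway genes 26 were tested here, with 6 higher and 12 lower, the latter including Ltb4r1 (-2.18, adjusted p = 5.9e-05) and the microsomal glutathione transferase Mgst2 (-2.13, adjusted p = 0.0030).

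Between genotypes and ages each group was 1 library, so the following ratios have no replicate check and no test, and a difference here means a ratio of at least 1.5-fold among genes with at least 50 UMIs over the pair of libraries. The 4 pairs compared share libraries with each other, and their values are given side by side. The count matrices of the 12-week and 21-week libraries came from different Cell Ranger versions, so age and software cannot be told apart.

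**Figure D5:**
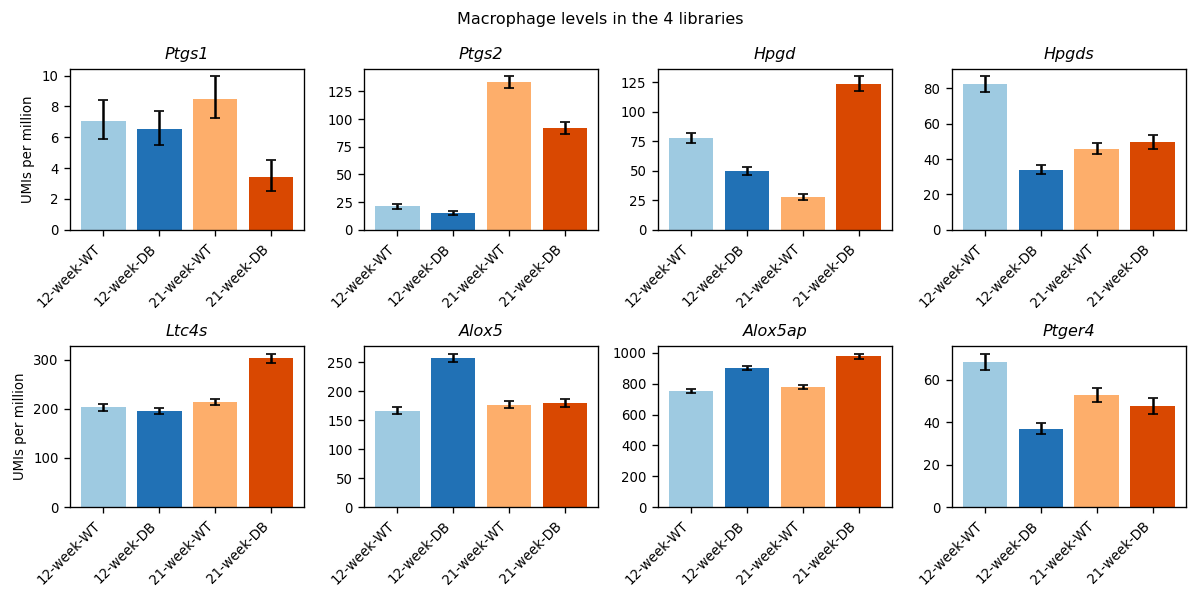
Level of 8 of the genes (CPM, axes from 0) in macrophage-gated barcodes of the 4 libraries, with exact 95% intervals of counting error and no replicate. Hpgd is lowest in 21-week-WT (27.6 CPM) and highest in 21-week-DB (124 CPM), and both 21-week libraries have more Ptgs2 than both 12-week libraries. A Ptgs2 UMI was found in 3.23% to 11.6% of these barcodes.

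At 12 weeks, macrophages of DB differed from WT in 4 of the 8 genes with enough UMIs, with 1 higher and 3 lower, where 4.09% and 7.93% of 11654 genes were. Alox5 was higher in 12-week-DB (0.63 on the log2 scale, interval 0.57 to 0.70). Hpgds (-1.27, interval -1.40 to -1.14), Ptger4 (-0.89, interval -1.02 to -0.76) and Hpgd (-0.64, interval -0.76 to -0.52) were lower. The ratios of Ptgs2 (-0.48), Alox5ap (0.26), Ptgs1 (-0.11) and Ltc4s (-0.05) stayed under 1.5-fold.

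At 21 weeks, 1 gene was higher and 1 lower in DB macrophages, where 14.2% and 8.92% of 11418 genes were (10.4% and 12.2% with TMM scaling). Hpgd was higher (2.17 on the log2 scale, interval 2.03 to 2.31), a 4.50-fold ratio. Ptgs1 was lower (-1.32, interval -1.83 to -0.84) from 46 UMIs in 21-week-DB against 159. Ltc4s (0.50), Alox5ap (0.33), Hpgds (0.12), Alox5 (0.02), Ptger4 (-0.14) and Ptgs2 (-0.53) stayed under 1.5-fold. With macrophages taken from clusters in place of gates, the Ptgs2 ratio was -3.38.

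Of the other pathway genes, 24 had enough UMIs in macrophages at 12 weeks and 25 at 21 weeks. At 12 weeks 3 were higher in DB and 2 lower, where 4.09% and 7.93% of all genes were. At 21 weeks 6 were higher and 6 lower, where 14.2% and 8.92% of all genes were. Pla2g7, the platelet-activating factor acetylhydrolase, was higher in DB at both ages (88.0 and 142 CPM at 12 weeks, 111 and 422 CPM at 21 weeks, WT first). Alox15 was lower in DB at both ages (40.3 and 8.82 CPM, then 12.1 and 0.444 CPM). Pla2g4a was higher in DB at 21 weeks (17.6 CPM in WT and 41.9 in DB), as was the carbonyl reductase Cbr1 (8.83 and 18.7 CPM), while Ltb4r1 (27.1 and 10.3 CPM) and Cysltr1 (51.3 and 26.1 CPM) were lower.

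From 12 to 21 weeks, WT macrophages had 6.28-fold more Ptgs2 (2.65 on the log2 scale, interval 2.49 to 2.81), with lower Hpgd (-1.497, interval -1.65 to -1.35) and Hpgds (-0.85, interval -0.97 to -0.72). That is 1 gene higher and 2 lower of 8, where 3.01% and 12% of 11514 genes were (5.82% and 6.24% with TMM scaling, which shifted this ratio by 0.19). In DB macrophages Ptgs2 (2.59, interval 2.41 to 2.77), Hpgd (1.32, interval 1.20 to 1.43) and Ltc4s (0.63, interval 0.56 to 0.69) were higher at 21 weeks and Ptgs1 was lower (-0.94, interval -1.45 to -0.45), 3 higher and 1 lower of 9, where 9.80% and 13.6% of 11553 genes were. With cluster names the DB ratio of Ptgs2 was 0.20.

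In cDC2 at 12 weeks, DB had more Alox5 (1.15 on the log2 scale, interval 0.98 to 1.32) and less Ptger4 (-0.70, interval -0.88 to -0.52), 1 gene higher and 1 lower of 5, where 3.73% and 4.26% of 9999 genes were. At 21 weeks 5 were higher and 1 lower of 7, where 11.9% and 10.4% of 9775 genes were. Ptgs2 was 3.94-fold higher in DB (1.98, interval 1.90 to 2.06) and Hpgd was at 30.6 against 1.001 CPM (4.93, interval 4.09 to 5.90). Alox5 (0.84), Ltc4s (2.04) and Hpgds (0.74, interval -0.10 to 1.52, but -0.27 with cluster names and -0.15 thinned) were the other 3, and Ptger4 was lower (-0.69). The 21-week-DB class had 208 barcodes, against 490 to 943 in the other libraries.

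In neutrophils Ptgs2 was higher in DB at 12 weeks (2.43 on the log2 scale, interval 2.28 to 2.58) and lower in DB at 21 weeks (-1.82, interval -2.12 to -1.52). It was 1 of 3 genes with enough UMIs at 12 weeks, where 15.0% and 21.3% of 2131 genes were higher or lower, and 1 of 2 at 21 weeks, where 18.4% and 28.1% of 1147 genes were. Alox5ap was the other, higher in 21-week-DB (0.62, interval 0.35 to 0.89). Monocyte Ptgs2 was higher in DB at 12 weeks (1.95, interval 1.75 to 2.15), the only one of 4 genes, where 8.50% and 6.13% of 5485 genes differed, and under 1.5-fold at 21 weeks (0.31). At 21 weeks Alox5 was lower in DB monocytes (-1.45, interval -2.70 to -0.42, 8 against 110 UMIs), the only one of 4, where 11.2% and 19.7% of 6736 genes differed, and with cluster names the ratio was 0.02. Leaving out barcodes shared between libraries moved the 12-week neutrophil ratio of Ptgs2 to 2.01.

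ILC2 of 12-week-DB had less Ptgs2 (-1.87 on the log2 scale, interval -2.53 to -1.23) and less Ptger4 (-0.67, interval -0.85 to -0.48) than WT, and more Hpgd (1.48, interval 0.44 to 2.68), 1 higher and 2 lower of 5, where 5.31% and 5.64% of 9137 genes were. At 21 weeks Ptgs2 (-5.08, interval -5.69 to -4.53) and Alox5ap (-1.54) were lower and Hpgd (2.62, interval 2.02 to 3.28) and Hpgds (0.88) higher in DB, 2 each way of 7, where 12% were higher and 14.8% lower of 10044 genes. In 21-week-WT, 10 barcodes held 84.8% of the ILC2 Ptgs2 UMIs. Ptger4 was under 1.5-fold at 21 weeks (-0.56).

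The Langerhans gate at 21 weeks had 4 of 6 genes higher in DB, Ltc4s (3.18 on the log2 scale), Ptgs1 (2.13), Alox5 (1.79) and Hpgds (1.70), where 32.6% of 2690 genes were higher and 14.4% lower. The summed level of the 5 gate markers moved with them, at 3854 CPM in 21-week-WT and 10331 in 21-week-DB, and 25 of 25 gated barcodes in 21-week-WT but 4 of 46 in 21-week-DB lay in clusters named cDC2. The part of this mix in the ratios was not tested. When barcodes that met both the Langerhans and the macrophage gate were put in the Langerhans gate, an alternative chosen after the values were seen, the ratios were 2.70 for Ltc4s, 1.49 for Alox5, 1.31 for Hpgds and 1.22 for Ptgs1. The Alox5ap ratio was under 1.5-fold (-0.01, interval -0.21 to 0.19).

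In the Langerhans gate at 12 weeks only Ltc4s was past 1.5-fold (0.74 on the log2 scale, interval 0.27 to 1.23, higher in DB), 1 of 5 genes, where 14.8% of 2420 genes were higher and 10.5% lower. Mast cells at 12 weeks had neither of 2 genes past 1.5-fold, where 5.59% and 6.97% of 4189 genes were. At 21 weeks the mast cell Hpgds ratio was under 1.5-fold (0.14, interval -0.17 to 0.46) and Alox5ap lower in DB (-0.70, interval -1.28 to -0.09), 1 of 2 genes, where 14.6% and 12.3% of 5754 genes were higher or lower.

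In αβ T cells at 12 weeks Alox5ap was higher in DB (0.81 on the log2 scale, interval 0.29 to 1.36, but -1.31 with cluster names and -0.16 with a stricter gate), 1 of 2 genes, where 5.82% of 7863 genes were higher and 3.26% lower. At 21 weeks Hpgd was higher (4.70, 59 against 2 UMIs) and Alox5ap lower in DB (-0.90, interval -1.47 to -0.35), with 10.7% and 13.6% of 9088 genes higher or lower, and the third gene, Ptger4, under 1.5-fold (-0.44, interval -0.65 to -0.24).

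Alox5ap in lymphoid classes was lowest or among the lowest in 21-week-DB. ILC2 had 33.2, 36.0, 24.7 and 8.48 CPM, and dermal γδ T cells had 25.4, 22.8, 12.3 and 9.46 CPM. The summed macrophage markers ran beside it, with 171, 159, 88.2 and 62.6 CPM in ILC2 and 170, 155, 71.9 and 79.4 CPM in dermal γδ T cells, and their part in the Alox5ap values was not tested.

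Ptgs2 was higher in 21-week-WT than in 12-week-WT in all 9 classes where the pair of libraries held at least 50 UMIs. The log2 ratio was 1.47 in monocytes, 1.74 in neutrophils, 1.93 in ILC2, 1.97 in dermal γδ T cells, 2.08 in cDC2, 2.44 in the Langerhans gate, 2.65 in macrophages, 4.21 in B cells and 4.86 in cDC1. Of the classes with too few UMIs for a ratio, mast cells went the other way, from 46.6 CPM (37 UMIs) to 8.60 CPM (4 UMIs), while αβ T cells were at 1.91 and 3.65 CPM, NK cells at 6.17 and 8.73 CPM and DETC at 0 and 8.83 CPM (0 and 3 UMIs). In monocytes named by clusters the ratio turned to -2.32, and B cells and cDC1 rest on 9 and 3 UMIs in 12-week-WT. Their 110 and 221 UMIs in 21-week-WT lay in 9 of 191 B cell and 13 of 208 cDC1 barcodes.

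Between the DB libraries the classes did not run together. Ptgs2 was higher at 21 weeks in cDC2 (3.70 on the log2 scale, interval 3.55 to 3.86), the Langerhans gate (3.14) and macrophages, lower in neutrophils (-2.50, interval -2.80 to -2.21) and ILC2 (-1.28), and under 1.5-fold in monocytes (-0.17). The ILC2 ratio was 0.66 with a limit of 5% mitochondrial UMIs.

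In all gated leukocytes together the ratio also reflects which classes were captured. Over 11 classes at 21 weeks, Ptgs2 was lower in DB (-0.71 on the log2 scale), but it was higher (0.81) when the DB class levels were weighted by the UMI shares of the classes in WT. Alox5ap went from -0.37 to 0.33 and Alox5 from -0.23 to 0.20 in the same way. Hpgd was higher in both calculations (2.28 and 2.45). At 12 weeks Ptgs2 went from 0.50 to 1.45 over 12 classes.

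Across 49 sums of a class in a library, the gene whose log2(CPM + 1) followed each of the 9 most closely was found among 11164 genes, as a description, since the sums share libraries and depth. Ptgs2 was most like the cystine transporter Slc7a11 (Pearson's r = 0.923), the interleukin-1 receptor antagonist Il1rn (0.892) and the inflammasome sensor Nlrp3 (0.883). Alox5ap was most like Il13ra1 (0.957), Csf2ra (0.947) and Tgfbi (0.941). Ltc4s was most like Lpar4 (0.857) and the macrophage gate marker C1qa (0.840), and Hpgd most like Chmp3 (0.776). Ptgs1 was most like Plek2 (0.845), Hpgds like Fblim1 (0.846), Alox5 like App (0.861), Ptger4 like Oxa1l (0.829) and Ptges like Sort1 (0.673).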

How the data were processed

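Hindpaw CD45+ cells of 4 groups were sequenced with a 10x 3′ v3 kit, and the authors deposited unnormalized UMI counts per gene and barcode, aligned to mm10 with Cell Ranger (5.0.0 in the labels; the file headers give 5.0.0 at 12 weeks and 6.0.0 at 21 weeks). The study's ambient RNA and doublet removal is not in these counts. Barcodes under 200 genes or over 10% mitochondrial UMIs were removed, which left 46435961 to 67723605 UMIs a library. A class needed 3 of its 5 markers, with 2 UMIs of each abundant one, and barcodes that met 2 unrelated gates were left out in place of a doublet caller. One marker of the Langerhans gate is not reported here.

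UMIs were summed per class and library (sums of at least 20 barcodes) and 6 class contrasts were tested across all genes with edgeR 4.0.16 in R 4.3.3 (quasi-likelihood test, TMM, library as block, Benjamini-Hochberg, threshold 0.05). The 4 libraries served as replicates, so the spread holds genotype and age. Ratios between libraries have exact Poisson-based 95% intervals and no test. Alternatives were DESeq2 1.42.0, other filters, gates and scalings, clusters from scanpy 1.11.5, Scrublet, thinning to 2000 UMIs and leaving out a library. The test was checked on simulated counts and recovered 59% to 76% of 2-fold and 99% to 100% of 3-fold changes over the 6 contrasts, with 4 to 11 false calls. The simulated counts had a fixed spread, only the pair of classes compared and no effect of genotype or age. Changes were placed only in genes with enough counts, so the recovery for the 9 genes is not known from it. All 9 genes were named in every class, the 40 other pathway genes by counts and values past the fold or test, and the 3 genes most like each by correlation among genes with at least 500 UMIs. The genes and lists were chosen with earlier results of these data known.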

Additional observations from a re-analysis of the deposited data

Results flagged for a closer look

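In 3 cases the DB to WT ratio pointed in opposite directions at the 2 ages, with every interval of counting error on its own side of 0. With 1 library per group the difference between the ages was not tested. For Ptgs2 in neutrophils the log2 ratio was 2.43 at 12 weeks and -1.82 at 21 weeks, a difference of -4.24, from 36 to 102 barcodes a library. Few barcodes held most of these UMIs in the DB libraries, a spread that the intervals do not take in. The share of neutrophils with a UMI was 56.9% in WT and 54.1% in DB at 12 weeks, and 83.0% and 52.8% at 21 weeks. Leaving out barcodes shared between libraries moved the 12-week ratio below its interval. For Hpgd in macrophages it was -0.64 at 12 weeks and 2.17 at 21 weeks, a difference of 2.81, from 515 to 1675 UMIs a library, and it kept both directions under every alternative run. For Alox5ap in αβ T cells it was 0.81 at 12 weeks and -0.90 at 21 weeks, a difference of -1.71, from 40 to 132 UMIs, and the 12-week ratio turned under 2 alternatives.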

How the results depend on the processing

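Of 740 alternative results for the class tests of the 9 genes, 689 kept their side of the threshold, 37 lost and 14 gained it. No result that passed in the main fit or in the alternative changed sign. A change of sign between differences that did not pass was counted as kept. Alox5ap in ILC2 vs alpha-beta T cells (0.09 on the log2 scale) ran from -0.82 to 1.20 over its alternatives. These class tests were paired within libraries by the library block, whereas between genotypes or ages no paired analysis was possible because each group had 1 library. Without the library block the genes passing were 2977 for macrophages vs cDC2 (4510 with it), 850 for ILC2 vs alpha-beta T cells (1399) and 964 for Lyve1+ vs Lyve1- macrophages (3535). Thinning both macrophage arms to 2000 UMIs gave 1610. A fit of only the 2 classes gave 2338 for ILC2 vs alpha-beta T cells, and leaving out 1 library gave 913 to 1226 there. The ILC2 and αβ T cell calls of Ptgs2 and Hpgd were lost without 1 library (adjusted p up to 0.61 and 0.15). In 21-week-DB vs 21-week-WT macrophages, 4 genes in place of 2 passed 1.5-fold at 5% mitochondrial UMIs and with cluster names.

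Ratios between libraries kept their size in 1160 of 1385 alternatives, moved in 215 and turned in 10, with only ratios past 1.5-fold counted as turned. With cluster names, the turned values were -1.31 for Alox5ap in alpha-beta T, 12-week-DB vs 12-week-WT (-0.16 with a stricter gate), -0.27 for Hpgds in cDC2, 21-week-DB vs 21-week-WT (-0.15 thinned), 0.0206 for Alox5 in monocyte, 21-week-DB vs 21-week-WT, -0.47 for Hpgds in cDC2, 21-week-WT vs 12-week-WT (-0.84 thinned) and -2.32 for Ptgs2 in monocyte, 21-week-WT vs 12-week-WT. Thinning gave -1.09 for Ltc4s in cDC2, 21-week-DB vs 12-week-DB, and a limit of 5% mitochondrial UMIs 0.66 for Ptgs2 in ILC2, 21-week-DB vs 12-week-DB. The causes were not tested. Leaving out shared barcodes and placing the Langerhans gate before the macrophage gate were chosen after seeing the data. Depth limits neutrophils and the Langerhans gate (under 103 barcodes a library) and mast cells, whose barcodes are shallow.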

Other observations

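Several receptors of the pathway list had class patterns of their own, given here as levels over the 4 libraries. The prostaglandin E2 receptor Ptger3 was highest in mast cells (39.0 to 72.5 CPM), ahead of cDC2 (14.2 to 24.3 CPM). The cysteinyl leukotriene receptor Cysltr1 (178 to 260 CPM) and the prostacyclin receptor Ptgir (51.3 to 82.5 CPM) were highest in ILC2, and the leukotriene B4 receptor Ltb4r1 was highest in cDC2 (78.4 to 161 CPM). The lipoxygenase Alox15 was highest in the Langerhans gate (61.4 to 275 CPM) and cDC2 (49.2 to 252 CPM), and Cyp4f18 in neutrophils (483 to 891 CPM), where the next class, B cells, reached 80.8 CPM. No UMI of the prostaglandin D2 receptor Ptgdr and 1 UMI of the other prostaglandin D synthase, Ptgds, were counted in all gated leukocytes. The other prostaglandin D2 receptor, Ptgdr2, was detected and was highest in dermal γδ T cells (6.44 to 17.6 CPM).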
